A study of Danio rerio with 2 samples.

Results

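The collagen genes of the zebrafish were described in cells sorted for green fluorescent protein (GFP) driven by the *mitfa* promoter, by collagen type, by cell class and between *mgat4b* mutant and control embryos. Members were the genes whose symbol has the form col, a number, then a and a digit, with 20 or more unique molecular identifiers (UMIs, one per captured transcript) over both libraries. This gave 53 genes of 25432 in the files, from 21 collagen types. The 55 symbols of that form also included *col10a1a* (2 UMIs) and *col10a1b* (3 UMIs), which fell below the minimum. The members nearest to it were *col8a1b* with 23, *col28a2b* with 27 and *col28a1b* with 29 UMIs. *col6a3* and *col19a1* each stand for a pair of gene identifiers, and values given for these names belong to the identifier with more UMIs (ENSDARG00000077139 and ENSDARG00000076163).

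The study held 1 library of *mgat4b* mutant cells and 1 library of control cells, each from embryos at 36 hours post fertilisation (hpf). By the study's methods a plasmid with *mitfa*:Cas9 and *mitfa*:gfp was injected at about the one-cell stage, with guide RNAs against *mgat4b*, a glycosyltransferase gene that adds a branch to *N*-glycans, under a U6 promoter for the mutant. The control is called so in the labels and a non-targeting control in the study. Both groups were injected and so mosaic animals in which the *mitfa* promoter drove both Cas9 and the marker for sorting. The general methods describe embryos gathered in tubes for dissociation, and do not state whether the groups were handled at the same time. The labels list no treatment for either library, and the general methods name phenylthiourea in the embryo water, a blocker of melanin synthesis, without naming these libraries. The labels call the cells melanocytes, but no cluster was named melanophore-like by the marker lists, and xanthophore-like, neural crest-like and iridophore-like cells were 500 mutant and 65 control cells.

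Collagens are secreted proteins in which chains of repeated Gly-X-Y triplets wind into a triple helix. Fibrillar types (I, II, V, XI, XXIV and XXVII) form the fibrils of skin, tendon, notochord sheath and cartilage. FACIT types (fibril-associated collagens with interrupted triple helices: IX, XII, XIV, XVI, XIX, XXI and XXII) decorate them. Type IV builds the network of basement membranes, type VI beaded filaments, type VII the anchoring fibrils under the epidermis, and type XVII is a transmembrane chain of hemidesmosomes. In the fish embryo the epidermis itself makes fibrillar collagen for the skin, and the notochord is a main early source of type II collagen.

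After filtering, 3860 mutant and 1771 control cells remained, with medians of 6480 and 4919 UMIs per cell. Cells under 1000 UMIs made up 9.22% of mutant and 30.2% of control cells, and 2 barcodes occurred in both libraries. Clustering without any collagen gene gave 24 clusters, of which 20 were placed in 16 classes by marker lists that hold no collagen. The other 4 stayed unnamed and held 538 mutant and 703 control cells, 13.9% and 39.7% of the libraries. Classes are written as "-like". With 1 library per genotype there was no replicate check and no test. Values are CPM, the summed UMIs of a gene scaled to a common library total of 1e6, a scale on which each 3′ tag counts once whatever the length of the transcript, and the 95% intervals stand for counting error alone. The targeted gene *mgat4b* reached 64.3 CPM in the mutant library and 80.8 CPM in the control library, a ratio of 0.796, which does not measure the rate of mutation.

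Collagen transcripts were concentrated in a few cell classes and a few genes. The members held 595638 UMIs in all, and the 5 most abundant genes, *col2a1a*, *col1a1a*, *col11a1a*, *col1a2* and *col1a1b*, made up 53% of them. Epidermis-like cells held 33.3% of the collagen UMIs, notochord or cartilage-like cells 32.1% and mesenchyme-like cells 23%, although the notochord or cartilage-like class had only 60 mutant and 24 control cells. Of the 53 members, 42 had over 50% of their UMIs in a single named class, against 14.9% of the other genes with 20 or more UMIs. The class with the highest level was the same in both libraries for 44 of 53 members, and for 36 of the 40 members with 500 or more UMIs. This agreement was not computed for other genes, and the classes came from a joint clustering of both libraries. Epidermis-like cells led for 18 members, mesenchyme-like and notochord or cartilage-like cells for 11 each, endothelium-like cells for 4 and skeletal muscle-like cells for 3.

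**Figure D1:**
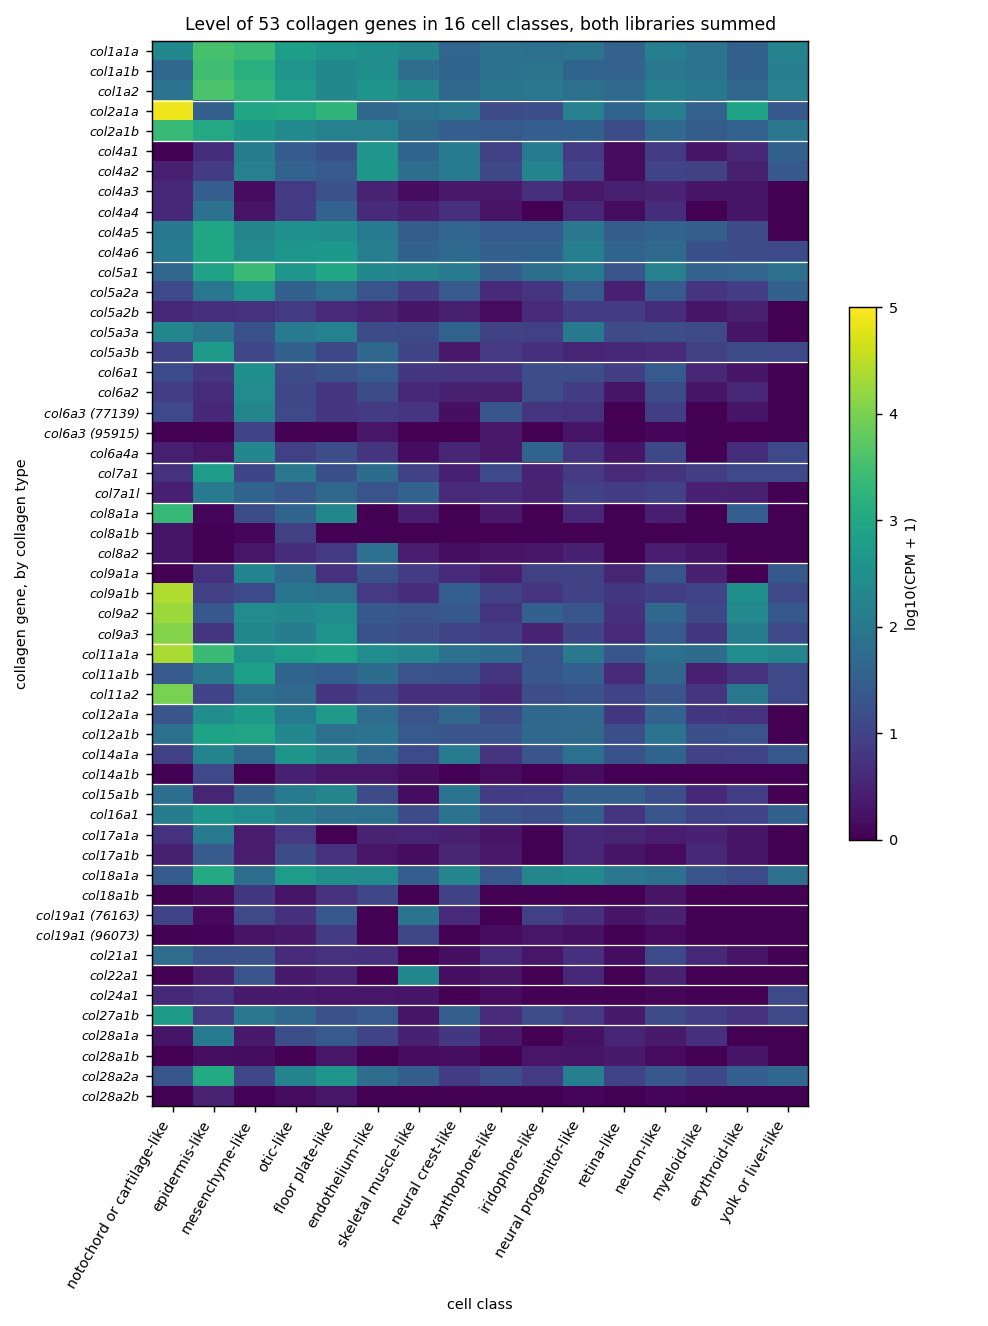
Level of each collagen gene (rows, ordered by collagen type, with white lines between types) in each cell class (columns), as log10 of CPM plus 1 over the summed cells of both libraries. Rows for *col6a3* and *col19a1* carry the end of the gene identifier. The highest level is that of *col2a1a* in notochord or cartilage-like cells, 75336 CPM, and the type I rows are highest in epidermis-like and mesenchyme-like cells.

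Within the sorted cells the share of transcripts given to collagen differed widely between classes. In the notochord or cartilage-like class 15.4% of mutant and 20.2% of control UMIs came from collagen genes. The epidermis-like cells split into a cluster led by *cldni*, *lamb4* and *krt91* (cluster 3, 299 mutant and 121 control cells) and a cluster led by *agr1*, *anxa1c* and *evpla* (cluster 5, 243 and 93 cells). Collagen made up 3.86% of mutant and 4.88% of control UMIs in cluster 3. It made up 0.0443% and 0.0602% in cluster 5, so that nearly all collagen UMIs of the epidermis-like class lay in cluster 3. The mesenchyme-like class split in the same way into cluster 1, led by *fmoda*, *vwde*, *thbs4b* and *meox1*, with 2.0% and 2.78% collagen, and cluster 4, led by *prrx1b*, *prrx1a* and *twist1a*, with 0.495% and 0.406%. Otic-like cells had 0.712% and 0.829%, and floor plate-like cells 0.888% and 0.731%.

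The remaining classes were low. Neuron-like cells had 0.144% collagen UMIs in the mutant library and 0.154% in the control library. The pigment and crest classes were of the same order, with 0.119% and 0.262% in neural crest-like cells, 0.0867% and 0.207% in iridophore-like cells and 0.0423% and 0.224% in xanthophore-like cells. The epidermis marker list moved in the same direction, with 709 CPM in mutant and 2009 CPM in control neural crest-like cells, 523 and 918 CPM in iridophore-like and 1432 and 3998 CPM in xanthophore-like cells. The mesenchyme list had 129.7 and 283, 81 and 269.9, and 103 and 341 CPM in the same classes, and the part of either was not tested. Single cells set several of these sums. In xanthophore-like cells 1 control cell held 31.8% of the collagen UMIs, and without it the control share was 0.0653%. In iridophore-like cells 1 control cell held 29.8%, and the control share without it was 0.109%. In endothelium-like cells 1 control cell held 38.7% of the collagen UMIs, and the shares without it were 0.201% in the mutant and 0.351% in the control. In erythroid-like cells, red cell precursors, 1 mutant cell held 82.8%. Among mutant erythroid-like cells the highest level of *col2a1a* was 25142 CPM, and *col9a2* was found in 1 cell, at 7011 CPM. The notochord or cartilage marker list had 688 CPM in mutant and 0 CPM in control cells of that class, and its part was not tested.

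**Figure D2:**
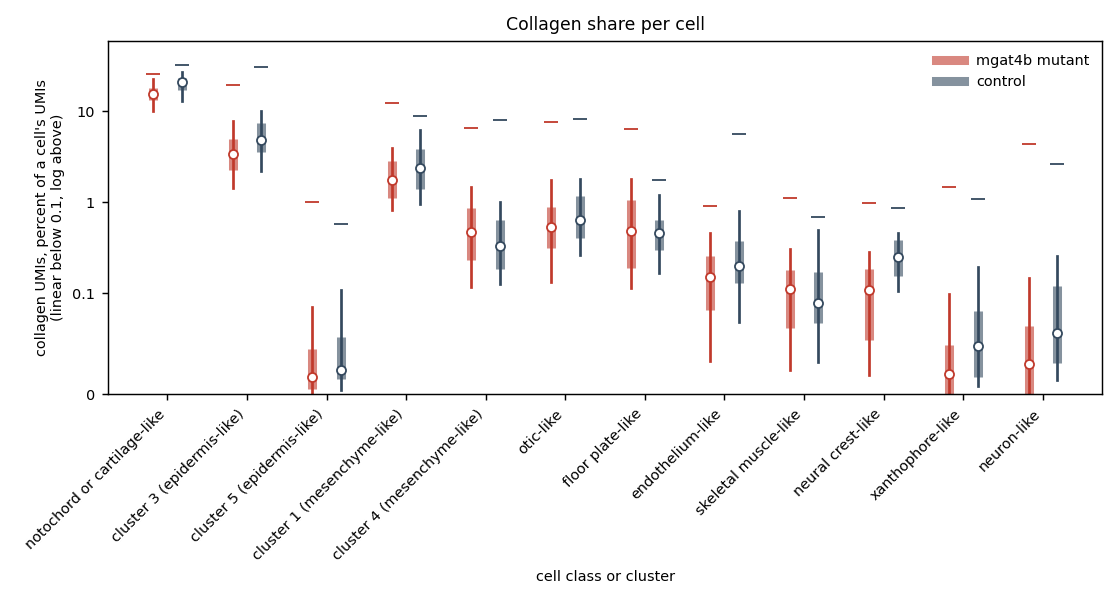
Share of each cell's UMIs from collagen genes in 12 classes or clusters, mutant (left of each pair) and control. The circle is the median over cells, the thick bar the middle 50%, the thin line the 10th to 90th percentile and the dash the highest cell, on an axis that is linear below 0.1% and logarithmic above. The medians in notochord or cartilage-like cells are 15.7% and 21%, and in neuron-like cells 0.030% and 0.061%.

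The notochord or cartilage-like class (cluster 19, led by *cmn*, *epyc*, *matn3a*, *cnmd* and *tbxta*) carried the cartilage set of types II, IX and XI. *col2a1a*, the main chain of type II collagen, reached 68059 CPM in the mutant library and 89163 CPM in the control library, and 84.5% of its UMIs lay there. Every one of the 84 cells had the transcript, from 17723 to 126764 CPM with a median of 68942 over mutant cells, and from 13169.6 to 131294 CPM with a median of 88188 over control cells. The ranges over cells of the 2 libraries overlapped. Of the chains of type IX, a collagen that sits on type II fibrils, *col9a1b* had 22680.5 CPM in the mutant library and 31950.5 CPM in the control library and 96% of its UMIs in the class. *col9a2* had 17134 CPM in the mutant library and 18984 CPM in the control library, and *col9a3* had 10484 CPM in the mutant library and 14803 CPM in the control library. The paralogue *col9a1a* had no UMI there and lay in mesenchyme-like cells, with 80.2% of its UMIs and 132 CPM in the mutant library and 274 CPM in the control library. The mesenchyme-like class held *col9a2* and *col9a3* as well, with 208 CPM in the mutant library and 366 CPM in the control library for *col9a2*.

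Type XI chains, which set the diameter of type II fibrils, showed a similar division. *col11a2* had 89.9% of its UMIs in notochord or cartilage-like cells, at 8690.3 CPM in the mutant library and 11922 CPM in the control library. *col11a1a* was shared between that class, with 21381 CPM in the mutant library and 27910 CPM in the control library, and epidermis-like cluster 3, with 4466 CPM in the mutant library and 5823 CPM in the control library. *col11a1b* was a mesenchyme-like gene, with 77.8% of its UMIs there and 578 CPM in the mutant library and 856 CPM in the control library. In epidermis-like cells *col11a1a* had 241 UMIs for each *col11a2* UMI in the mutant library and 336 in the control library, against 2.46 and 2.34 in notochord or cartilage-like cells. *col2a1b*, the second type II gene, had its highest level in notochord or cartilage-like cells, with 1860.3 CPM in the mutant library and 3449 CPM in the control library, but most of its UMIs in cluster 3, 50.7%, at 1789.9 CPM in the mutant library and 2230.4 CPM in the control library. *col8a1a*, a short-chain collagen, was nearly confined to the class in level, with 2230.2 CPM in the mutant library and 2383 CPM in the control library and a median of 1.32 CPM over the 16 classes. *col27a1b*, a fibrillar chain of cartilage, had 499.6 CPM in the mutant library and 599 CPM in the control library.

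Epidermis-like cluster 3 carried the chains of the skin fibrils, the basement membrane and the structures that anchor it. The type I genes were its most abundant collagens: *col1a1a* had 6153 CPM in the mutant library and 7726 CPM in the control library, *col1a2* had 6116 CPM in the mutant library and 8713 CPM in the control library, and *col1a1b* had 4609 CPM in the mutant library and 6823 CPM in the control library. *col7a1*, the anchoring fibril chain, had 88.2% of its UMIs in the cluster, at 1080.2 CPM in the mutant library and 1115 CPM in the control library. Its relative *col7a1l* had 56.4% there, at 221 CPM in the mutant library and 206 CPM in the control library. The hemidesmosome chains were rarer, and *col17a1a* had 89.5% of its UMIs in the cluster, at 191 CPM in the mutant library and 263 CPM in the control library. *col17a1b* had 30.4 CPM in the mutant library and 76 CPM in the control library.

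Further members had most of their UMIs in cluster 3. *col28a2a*, of a type with von Willebrand factor A domains, had 80.5% of its UMIs there, at 2284 CPM in the mutant library and 2064 CPM in the control library, and *col28a1a* had 188 CPM in the mutant library and 204 CPM in the control library. For *col28a1a* cluster 5 held 13.5% of the UMIs in addition, at 41.1 CPM in the mutant library and 32 CPM in the control library. *col5a3b*, a chain of type V, had 89.1% of its UMIs in cluster 3, at 906 CPM in the mutant library and 969 CPM in the control library. *col18a1a*, the source of endostatin in basement membranes, had 1939.5 CPM in the mutant library and 2574 CPM in the control library, and *col16a1* 781 CPM in the mutant library and 897 CPM in the control library. *col12a1b*, a FACIT chain, was high both in cluster 3, with 1588 CPM in the mutant library and 1563 CPM in the control library, and in mesenchyme-like cluster 1, with 1142 CPM in the mutant library and 1110.4 CPM in the control library. Over the 24 clusters the profile most like that of *col7a1* was that of *col5a3b* (Pearson r of log2(CPM + 5) = 0.956), a description over clusters that share libraries and depth.

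Mesenchyme-like cluster 1 carried types V and VI. *col5a1*, the common chain of type V, which starts the fibrils of type I, was its most abundant collagen in the mutant library, with 3458 CPM in the mutant library and 4169 CPM in the control library. In the control library *col1a1a* was above it, at 5779 CPM against 2938 CPM in the mutant library. *col5a2a* had 552 CPM in the mutant library and 642 CPM in the control library. The chains of type VI, whose beaded filaments surround connective tissue cells, lay there too: the mesenchyme-like class held 86.4% of the UMIs of *col6a1*, 91.4% of *col6a2*, 88.2% of *col6a3* and 90.5% of *col6a4a*. In cluster 1 *col6a1* had 386 CPM in the mutant library and 464 CPM in the control library, *col6a2* had 322 CPM in the mutant library and 440.5 CPM in the control library, *col6a3* had 231 CPM in the mutant library and 345 CPM in the control library and *col6a4a* had 279 CPM in the mutant library and 293 CPM in the control library. *col12a1a* had 667 CPM in the mutant library and 741 CPM in the control library. The median over the 16 classes was at most 10 CPM for any of the type VI genes.

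By their highest level the type IV genes fell into 2 locations. In RefSeq (GRCz12tu) *col4a1* neighbours *col4a2*, *col4a3* neighbours *col4a4*, and *col4a5* neighbours *col4a6*. *col4a1*, a chain of the common basement membrane network, was highest in endothelium-like cells, with 479.8 CPM in the mutant library and 232 CPM in the control library, and *col4a2* had 485 CPM in the mutant library and 360.2 CPM in the control library there. Most UMIs of both genes lay in mesenchyme-like cells, 52.9% for *col4a1* and 50.2% for *col4a2*. Both were near 0 in epidermis-like cells, where *col4a1* had 1.4 CPM in the mutant library and 6.14 CPM in the control library. *col4a5* and *col4a6* were instead epidermis-like: *col4a5* had 1601 CPM in the mutant library and 1883 CPM in the control library in cluster 3, and *col4a6* had 1595 CPM in the mutant library and 1945 CPM in the control library. *col4a3* and *col4a4* were low and lay in cluster 3 as well, at 68.1 CPM in the mutant library and 49.3 CPM in the control library for *col4a3*, and at 163 CPM in the mutant library and 117 CPM in the control library for *col4a4*.

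The proportion of neighbouring chains varied between classes. *col4a5* had 1.0 UMIs for each of *col4a6* in epidermis-like mutant cells and 0.968 in control cells, and 0.764 and 0.768 in mesenchyme-like cells. It was 0.605 and 0.767 in floor plate-like cells. *col4a1* had 0.989 UMIs for each of *col4a2* in endothelium-like mutant cells and 0.645 in control cells. Across pairs, *col4a5* had 1.67 UMIs for each of *col4a1* in mesenchyme-like mutant cells and 1.0 in control cells, and 0.0522 in endothelium-like mutant cells and 1.48 in control cells, the class in which 1 control cell held 38.7% of the collagen UMIs. The epidermis marker list had 1612 CPM in mutant and 9122 CPM in control endothelium-like cells. The mesenchyme list had 684 and 1585 CPM there, and the part of either was not tested. Across the 24 clusters the correlation of log2(CPM + 5) was 0.978 for *col4a1* and *col4a2*, rank 2 of 1376 pairs of members. It was 0.962 for *col4a5* and *col4a6*, rank 5, and 0.903 for *col4a3* and *col4a4*, rank 18. The other neighbouring pair of members, *col9a2* and *col16a1*, had 0.494, rank 430. These values describe clusters that share libraries and depth and carry no test.

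**Figure D3:**
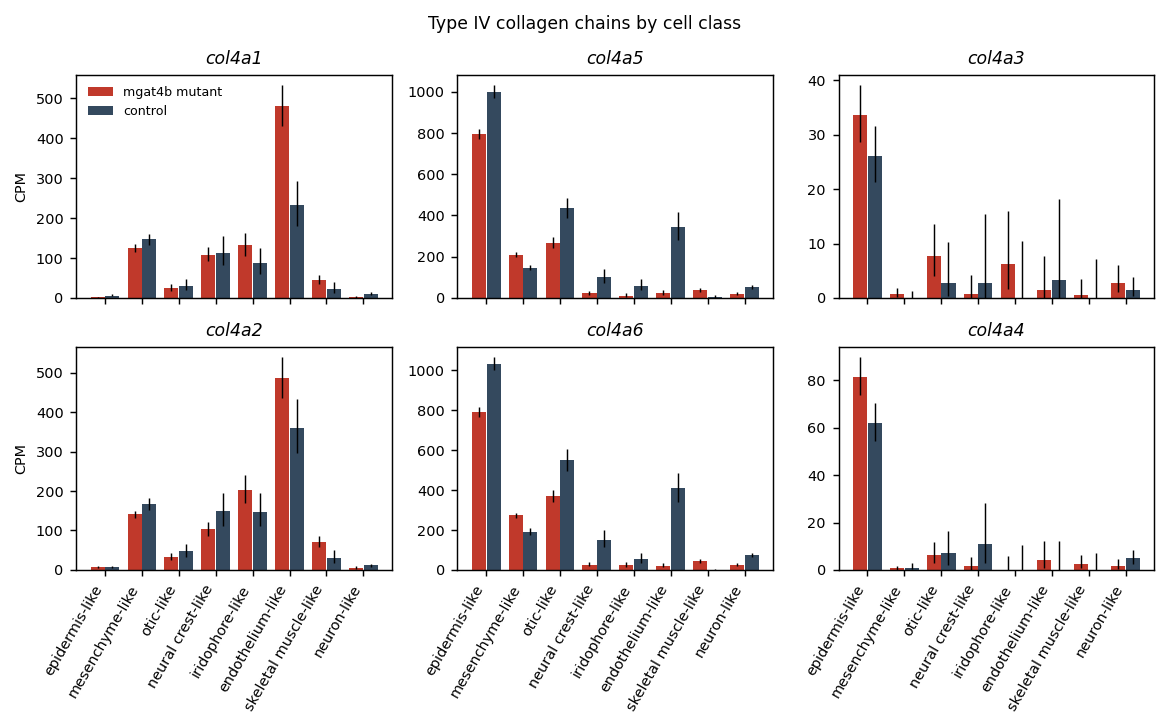
CPM of the 6 type IV genes (one panel each, neighbouring genes above each other) in 8 cell classes, mutant (left bar, red) and control (right bar, dark), with 95% Poisson intervals as error bars. *col4a1* and *col4a2* are tallest in endothelium-like cells, and *col4a5*, *col4a6*, *col4a3* and *col4a4* in epidermis-like cells. The control bars of *col4a5* and *col4a6* in endothelium-like cells belong to the class in which 1 control cell held 38.7% of the collagen UMIs.

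Smaller classes held the highest level of single members. *col22a1*, a FACIT chain of the junction between muscle and tendon, had 67.9% of its UMIs in skeletal muscle-like cells, at 239 CPM in the mutant library and 132 CPM in the control library, and *col19a1* had 70.4 CPM in the mutant library and 116 CPM in the control library. *col14a1a*, a FACIT chain, was highest in otic-like cells, with 374 CPM in the mutant library and 423 CPM in the control library. *col15a1b*, of the multiplexin group, had 117 CPM in the mutant library and 116 CPM in the control library in otic-like cells and 98.7 CPM in the mutant library and 355 CPM in the control library in floor plate-like cells. *col8a2* was an endothelium-like gene, with 89 CPM in the mutant library and 13.1 CPM in the control library and 120 UMIs in all passing cells. In the crest-derived classes the highest collagen of neural crest-like cells in both libraries was *col18a1a*, with 134 CPM in the mutant library and 377 CPM in the control library. In iridophore-like cells *col4a2* had the highest level in the mutant library, with 202 CPM in the mutant library and 148 CPM in the control library, and *col1a2* in the control library, with 20.2 CPM in the mutant library and 244 CPM in the control library. That control library rests on 16 cells, of which 1 held 29.8% of the collagen UMIs of the class.

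The members with few UMIs were *col5a2b*, *col8a1b*, *col14a1b*, *col18a1b*, *col24a1*, *col28a1b*, *col28a2b*, the second identifiers of *col6a3* and *col19a1*, and *col4a3*, *col17a1b*, *col21a1* and *col8a2*, each with under 500 UMIs. *col14a1b* had 88.2% of its UMIs in cluster 3. Of the second identifiers, that of *col6a3* had 88.6% of its UMIs in mesenchyme-like cells, and that of *col19a1* had 37.7% in skeletal muscle-like cells, beside 88.2% and 37.4% for the first ones, and reads shared between such copies cannot be told apart. *col21a1* had its highest level in notochord or cartilage-like cells, with 53.2 CPM in the mutant library and 70 CPM in the control library. Over both libraries summed, *col28a1b* and *col5a2b* had no class above 1.34 and 6.8 CPM.

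The study compared the genotypes to follow melanocyte development without *mgat4b*, and here the comparison was made for collagen levels. The label mutant belongs to the library and not to single cells. With Cas9 under the *mitfa* promoter, epidermis-like, mesenchyme-like and notochord or cartilage-like cells of the mutant library need not carry a mutation of *mgat4b*. Mutation was not measured per cell, so the ratios compare libraries. Over all passing cells collagen made up 1.08% of UMIs in the mutant library and 1.56% in the control library, a summed ratio of 0.689 (0.686 to 0.693). A gene passed the size rule if its CPM ratio was at least 2 or at most 0.5, its interval left out 1 and it had 20 or more UMIs. Of 53 members 3 passed as higher in the mutant library, against 4.41% of all genes, and 4 as lower, against 6.93%. The members' shares were near those of all genes. Most of the shift was below 2-fold: the median log2 ratio of the members was -0.30, against -0.16 over all genes.

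The lower members were the hemidesmosome genes and a pair of rare genes. *col17a1a* had 16.7 CPM in the mutant library and 36.5 CPM in the control library, a ratio of 0.458 (0.406 to 0.515), and *col17a1b* had 3.94 CPM in the mutant library and 12.2 CPM in the control library, a ratio of 0.322 (0.255 to 0.405). *col14a1b* had 1.77 CPM in the mutant library and 3.8 CPM in the control library, and *col18a1b* had 1.31 CPM in the mutant library and 3.16 CPM in the control library. The higher members were all rare. *col5a2b* had 4.66 CPM in the mutant library and 2.11 CPM in the control library, a ratio of 2.21 (1.53 to 3.29), and *col8a2* had 3.28 CPM in the mutant library and 1.17 CPM in the control library, a ratio of 2.81 (1.72 to 4.79). *col8a1b* had 21 UMIs in the mutant library and 2 in the control library, but 78.3% of them lay in 1 otic-like cell, and the ratio without that cell was 0.842.

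By type, the ratio was 0.537 (0.531 to 0.542) for type I, 0.782 (0.773 to 0.792) for type II, 0.722 (0.706 to 0.738) for type IV, 0.779 (0.764 to 0.793) for type V, 0.907 (0.87 to 0.945) for type VI, 0.679 (0.649 to 0.711) for type VII, 0.801 (0.789 to 0.813) for type IX and 0.674 (0.665 to 0.684) for type XI. Types VIII and XXII were above 1, with 1.18 (1.1 to 1.27) and 1.53 (1.29 to 1.83). Type XXII is *col22a1* alone, which had 0.945 as a mean over cells. Type XXIV had 1.33, with an interval that held 1 (0.762 to 2.41). Types XVII, XVIII and XXI were among the lowest, with 0.424, 0.597 and 0.564. These ratios also carried the mix of cells, since the same classes held different shares of the libraries, and fewer collagen-making cells and less RNA per cell cannot be told apart in them. With the cluster mix held equal the summed ratio was 0.768, and *col1a1a* had 0.659 in place of 0.532. *col28a2a* had 1.07 in place of 0.758, *col17a1b* 0.422 in place of 0.322, and *col22a1* 1.145 in place of 1.53. *col4a1* had 1.06 in place of 1.22, *col4a2* 0.990 in place of 1.16, and *col5a3a* 1.54 in place of 1.43. *col17a1a*, at 0.672, and *col14a1b*, at 0.654, were then above the limit of 0.5, and *col18a1b* was at 0.367. Over all named classes other than epidermis-like, mesenchyme-like and notochord or cartilage-like, *col1a1b* had 67 CPM in the mutant library and 200.04 CPM in the control library, and *col1a2* had 121 and 247 CPM. Some genes of types II, IX and XI were above 1 in these cells, with *col2a1a* at 316 and 185 CPM, a ratio of 1.71, and ratios of 1.75 for *col9a1b*, 1.66 for *col11a2* and 1.35 for *col9a3*, while *col11a1a* had 0.755. Of the 622 mutant UMIs of *col9a1b* in these cells, 336 lay in erythroid-like cells, where 0 control cells had the transcript. Its ratio above 1 thus rests in part on that class. For *col2a1a* it was 895 of 5395, and for *col11a2* 109 of 363. *col2a1a* also had 1931 mutant and 478 control UMIs in otic-like cells, and 1503 and 244 in floor plate-like cells. Among mutant floor plate-like cells its highest level was 28684 CPM and its median 27.4 CPM. In the erythroid-like class 1 mutant cell held 82.8% of the collagen UMIs, and no ratios without it are given here. The part of free RNA in these levels was not tested.

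**Figure D4:**
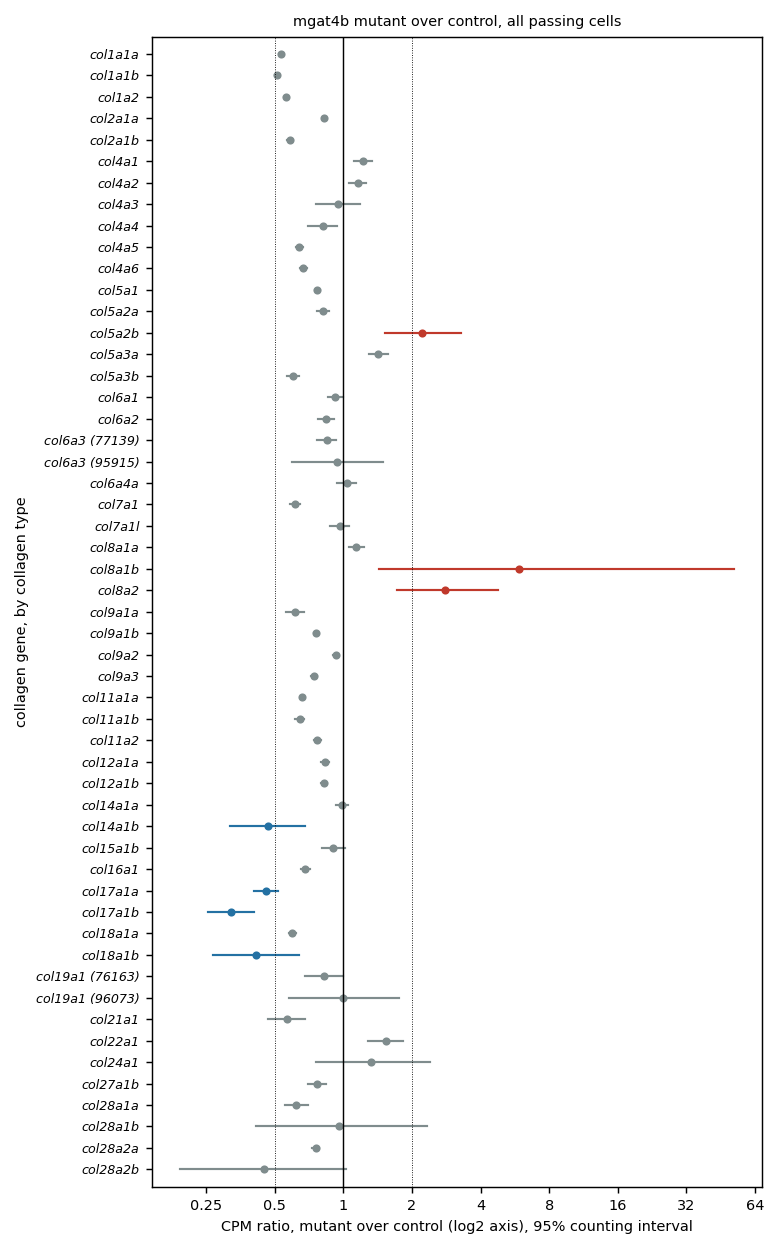
CPM ratio of mutant over control on a log2 axis for the 53 members over all passing cells, in the order of collagen types, with 95% counting intervals. Red marks the 3 members at or above 2-fold and blue the 4 at or below 0.5 with an interval that leaves out 1, the dotted lines mark these limits, and most points lie between 0.5 and 1.

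Within epidermis-like cells the summed collagen ratio was 0.74 (0.733 to 0.746), and in cluster 3 alone 0.791 (0.784 to 0.798). Of 42 members with 20 or more UMIs in the class 2 were higher (all genes 2.92%) and 7 lower (all genes 7.63%). In cluster 3 the counts were 2 higher (3.16%) and 7 lower (8.38%) of 39. Among the lower ones *col17a1b* had its highest level in this class, with a ratio of 0.40 (0.30 to 0.53) in cluster 3, and 0.461 without its highest cell. *col11a1b* was lower in the whole class, at 68.4 CPM in the mutant library and 143 CPM in the control library. The other lower members in cluster 3 had their highest level in other classes: *col2a1a* had 24.3 CPM in the mutant library and 55.2 CPM in the control library, and *col9a3* had 0 UMIs in the mutant library and 34 in the control library, at least 13.5-fold lower in the mutant against a floor of 3 UMIs. *col9a1b*, *col27a1b*, *col6a1* and *col6a2* were lower too, and for *col27a1b*, *col6a1* and *col6a2* the ratios without the highest cell were 1.24, 0.818 and 1.23. *col15a1b* and *col4a1* were lower in the whole class only, with 1.2 CPM in the mutant library and 3.83 CPM in the control library for *col15a1b*. The higher ones were *col5a2b*, with 8.51 CPM in the mutant library and 2.42 CPM in the control library, and *col24a1*, with 11.8 CPM in the mutant library and 4.84 CPM in the control library.

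The abundant genes of cluster 3 differed by less than 2-fold and not all in one direction. *col1a1a* had a ratio of 0.796 (0.779 to 0.814), *col1a1b* of 0.676 (0.659 to 0.693) and *col1a2* of 0.702 (0.687 to 0.717). *col5a1* had 0.709 (0.675 to 0.744), and *col18a1a* 0.754 (0.725 to 0.784). Near 1 were *col7a1* with 0.969 (0.916 to 1.02) and *col12a1b* with 1.02 (0.97 to 1.07). Above 1 were *col5a3a* with 1.55 (1.33 to 1.82), *col14a1a* with 1.28 (1.16 to 1.42) and the neighbours *col4a3* with 1.38 (1.07 to 1.78) and *col4a4* with 1.39 (1.18 to 1.64). The median log2 ratio of the members in cluster 3 was -0.30, against -0.14 over all genes. The cells of the cluster were also shallower in the mutant library, with a median of 6538 UMIs, against 13477 UMIs in the control library, and the part of depth was not tested. The mesenchyme marker list had a summed level of 2393 CPM in mutant and 4029 CPM in control epidermis-like cells, with 18 and 19 of 20 genes detected. The notochord or cartilage list had 110 CPM in mutant and 129 CPM in control cells, with 11 of 16 genes detected in each. The part of these lists was not tested either. In the low-collagen cluster 5, 0 members were higher (4.97%) and 2 lower (6.5%) of 21, namely *col5a2a* and *col1a1b*. The summed ratio of cluster 5 was 0.735, and 0.572 without 1 mutant cell.

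Within mesenchyme-like cells the summed ratio was 0.711 (0.703 to 0.719), with 0 members higher (all genes 2.78%) and 7 lower (all genes 3.95%) of 41. *col1a1a* was the only abundant one, with 1896 CPM in the mutant library and 3878 CPM in the control library and a ratio of 0.489 (0.476 to 0.502), which was 0.572 without 1 cell. *col9a1a* had a ratio of 0.483 (0.437 to 0.534) and *col11a2* of 0.37 (0.314 to 0.436). *col7a1*, *col9a1b*, *col18a1b* and *col21a1* were the other lower ones, of which *col21a1* had the highest level, with 10.3 CPM in the mutant library and 29.4 CPM in the control library. Marker genes of the notochord or cartilage list had a summed level of 259 CPM in mutant and 368 CPM in control mesenchyme-like cells, with 15 and 12 of 16 genes detected, and their part in the ratios of *col11a2* and type IX was not tested.

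The 2 mesenchyme-like clusters had summed ratios on opposite sides of 1. The summed collagen ratio was 0.721 (0.713 to 0.729) in cluster 1 and 1.22 (1.18 to 1.26) in cluster 4. In cluster 1 the members had 0 higher (2.89%) and 7 lower (3.92%) of 40, and a median log2 ratio of -0.43, against -0.06 over all genes. In cluster 4 they had 2 higher (4.38%) and 2 lower (4.97%) of 36, and a median log2 ratio of 0.38, against -0.06 over all genes. The difference between the clusters was not tested, and each rests on 1 library per genotype.

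Single genes showed the contrast. *col6a3* had 66.4 CPM in the mutant library and 19.3 CPM in the control library in cluster 4, a ratio of 3.44 (2.15 to 5.78), but a ratio of 0.671 (0.604 to 0.745) in cluster 1. *col6a1* had 1.72 (1.36 to 2.19) in cluster 4 and 0.831 (0.762 to 0.906) in cluster 1. *col1a2* had 1.37 (1.23 to 1.54) in cluster 4 and 0.808 (0.782 to 0.834) in cluster 1. *col7a1l* was the other higher member of cluster 4, with 52.7 CPM in the mutant library and 22.2 CPM in the control library, and *col19a1* and *col9a1b* the lower ones. In cluster 1, *col22a1*, not among the lower ones of the whole class, was lower, with 19.4 CPM in the mutant library and 42.3 CPM in the control library. Not all of the lower genes named for the class were called there. Neighbouring type IV genes had like ratios in both clusters: *col4a5* and *col4a6* had ratios of 1.48 and 1.5 in cluster 1 and 1.7 and 1.51 in cluster 4, while *col4a1* and *col4a2* had 1.01 and 0.993 in cluster 1 and 0.529 and 0.541 in cluster 4.

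**Figure D5:**
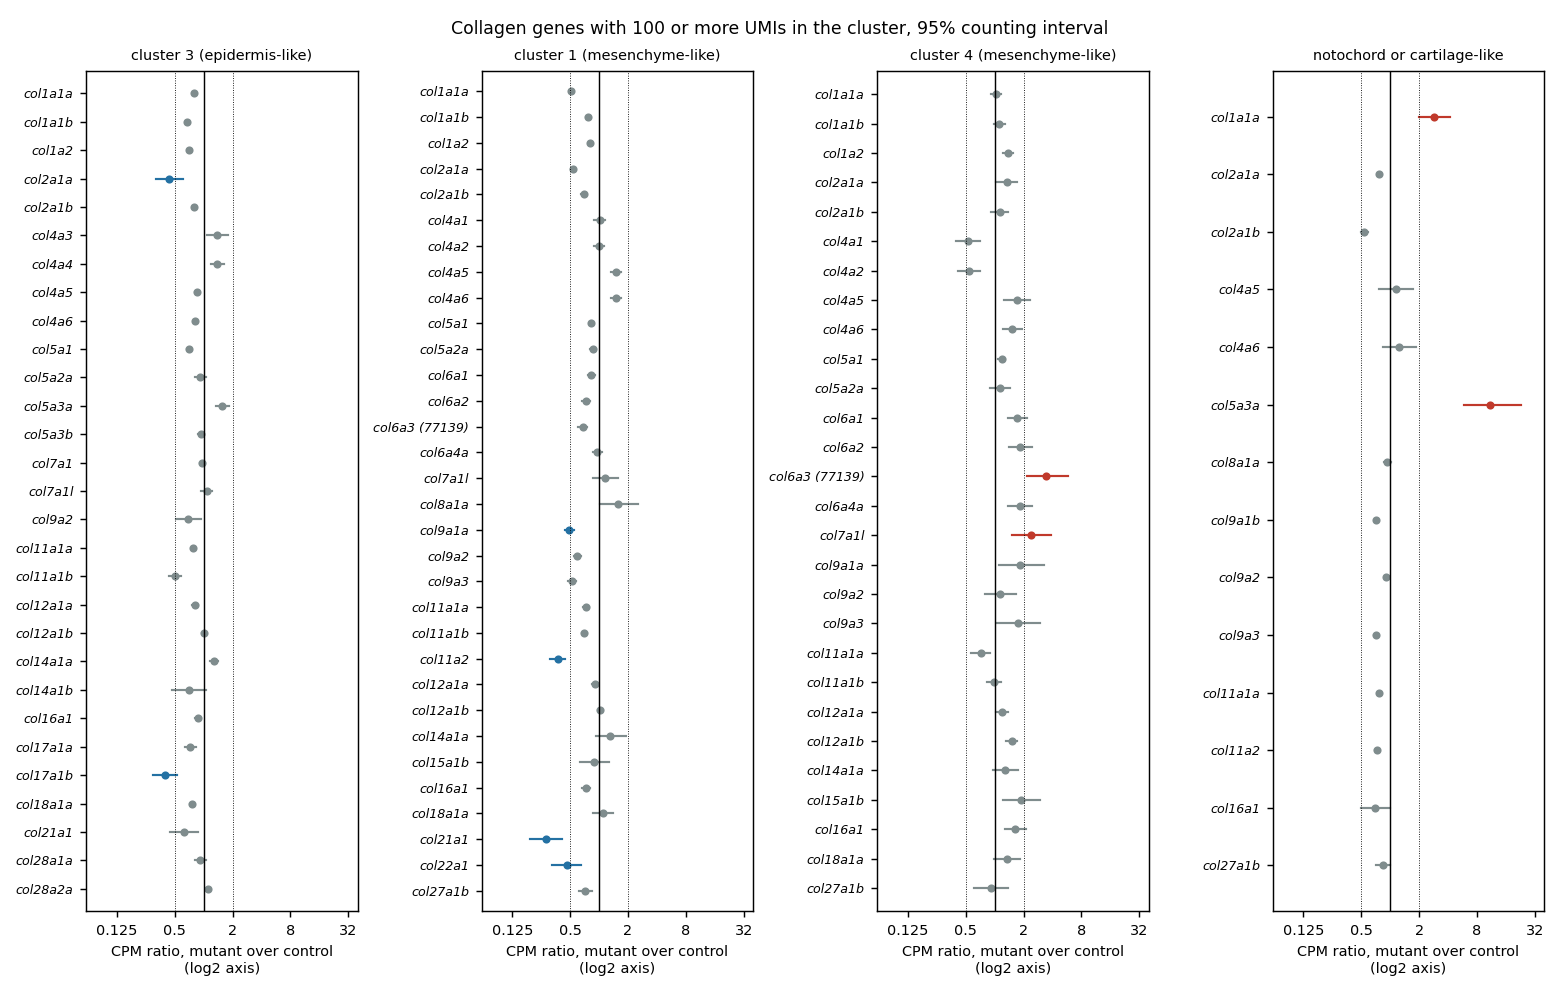
CPM ratio of mutant over control on a log2 axis for the members with 100 or more UMIs in epidermis-like cluster 3, mesenchyme-like clusters 1 and 4 and the notochord or cartilage-like class, with 95% counting intervals, dotted lines at 0.5 and 2, and red and blue for members past them. Most points of clusters 3 and 1 lie left of 1 and most points of cluster 4 right of it, with summed ratios of 0.791, 0.721 and 1.22.

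In notochord or cartilage-like cells the summed ratio was 0.764 (0.757 to 0.771), from 60 mutant and 24 control cells. Of 24 members 2 were higher (all genes 7.4%) and 0 lower (all genes 5.62%). The types II, IX and XI differed by less than 2-fold: *col2a1a* had a ratio of 0.763 (0.753 to 0.774), *col9a1b* 0.71 (0.693 to 0.727), *col9a2* 0.903 (0.877 to 0.929), *col9a3* 0.708 (0.684 to 0.733), *col11a1a* 0.766 (0.747 to 0.785) and *col11a2* 0.729 (0.702 to 0.757). *col2a1b* was lowest among the genes above 1000 CPM, with 0.539 (0.50 to 0.582), and *col8a1a* was nearest to 1, with 0.936 (0.863 to 1.02). The higher ones were *col5a3a*, with 283 CPM in the mutant library and 25.9 CPM in the control library, and *col1a1a*, with 276 CPM in the mutant library and 96 CPM in the control library. Both rested in part on 1 cell, and without it the ratios were 2.25 for *col5a3a* and 1.76 for *col1a1a*. With mutant cells drawn to the control number they were 1.77 for *col5a3a* and 0.606 for *col1a1a*. A UMI of *col1a1a* was found in 33.3% of mutant and 75% of control cells, with medians of 0 and 80.1 CPM, so that the summed level and the median cell differed in direction.

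In the remaining classes that were large enough for a comparison (50 cells or more per library) collagen was low, apart from otic-like cells. These had 0.712% collagen UMIs in the mutant library and 0.829% in the control library. Neural progenitor-like cells had a summed ratio of 0.811 (0.774 to 0.849), which was 0.923 without 1 control cell and turned to 1.01 with TMM scaling, with 4 members higher (all genes 3.21%) and 13 lower (all genes 12.5%) of 33. *col28a2a* was the most abundant higher one, with 181 CPM in the mutant library and 67 CPM in the control library and a ratio of 2.71 (2.17 to 3.4), and *col14a1a* had 80 CPM in the mutant library and 38.1 CPM in the control library. *col7a1l* and *col5a2b* were the other ones, *col5a2b* with 27 UMIs in the mutant library and 2 in the control library. The lower ones with most UMIs were *col5a1*, with 57.5 CPM in the mutant library and 231 CPM in the control library, *col1a1a*, with 34.4 CPM in the mutant library and 176 CPM in the control library, and *col1a2*, with 48.1 CPM in the mutant library and 108 CPM in the control library. The mesenchyme marker list had 109.8 CPM in mutant and 324 CPM in control cells of the class, and its part was not tested. With a marker gate, which places each cell by its detected markers and without clustering, the ratios of *col1a1a* and *col6a2* turned to 1.14 and 3.52. The rest of the lower ones were *col12a1b*, *col1a1b*, *col11a1b*, *col5a2a*, *col9a2*, *col9a3*, *col9a1a*, *col6a2*, *col4a1* and *col27a1b*, of which *col12a1b* had the highest level, with 34.7 CPM in the mutant library and 90.3 CPM in the control library.

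Otic-like cells had a summed ratio of 0.859 (0.832 to 0.887), which was 0.988 without 1 control cell, with 1 of 36 members higher (all genes 4.65%) and 5 lower (all genes 6.6%). The higher one was *col8a1a*, with 87 UMIs in the mutant library and 4 in the control library, 56.4 and 5.67 CPM, a ratio of 9.93 (3.74 to 37.3) that was 7.1 without its highest cell. *col1a1b* was the most abundant lower one, with 286 CPM in the mutant library and 667 CPM in the control library, and 0.645 as the ratio without its highest cell. *col5a2a*, *col5a3b*, *col6a2* and *col28a1a* were the other lower ones, and the ratio of *col28a1a* was 2.42 without its highest cell. *col14a1a*, which had its own highest level in this class, had a ratio of 0.886 (0.769 to 1.02).

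Neuron-like cells had a summed ratio of 0.933 (0.89 to 0.978), with 5 members higher (all genes 3.6%) and 6 lower (all genes 9.99%) of 34. A single mutant cell held 10% of the collagen UMIs of the class, and the summed ratio was 0.718 without it, 0.399 without the cells marked as doublets and 1.05 with TMM scaling. The higher ones were *col9a1a*, *col9a3*, *col11a2*, *col7a1l* and *col6a3*, with *col9a3* highest, at 39 CPM in the mutant library and 14.2 CPM in the control library. Without the highest cell of each gene the ratios were 1.46 for *col9a1a*, 0.803 for *col9a3*, 1.57 for *col11a2* and 0.953 for *col6a3*, so that only *col7a1l* kept a ratio above 2. The lower ones were *col4a6*, with 24.9 CPM in the mutant library and 74.9 CPM in the control library, *col4a5*, with 20.2 CPM in the mutant library and 53.3 CPM in the control library, with *col15a1b*, *col27a1b*, *col9a1b* and *col4a1* at lower levels. Retina-like cells had 0.763 (0.677 to 0.861), with 2 of 16 higher (4.77%) and 3 lower (4.44%). *col14a1a* had 38 UMIs in mutant retina-like cells and 0 in control ones, at least 4.83-fold higher against a floor of 3 UMIs, and *col5a3a* had 18.5 CPM in the mutant library and 1.61 CPM in the control library. *col2a1a*, *col1a2* and *col11a1a* were lower in retina-like cells, with *col2a1a* at 24 CPM in the mutant library and 79.1 CPM in the control library. The epidermis marker list had 841 CPM in mutant and 2189 CPM in control retina-like cells, and its part was not tested.

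Myeloid-like cells had a summed ratio of 0.0927 (0.0784 to 0.109), with 0 higher (9.54%) and 9 lower (6.66%) of 9. The cells of this class also differed in depth, with a median of 13992 UMIs over mutant cells and 893 over control cells, and collagen shares of the median cell of 0.0133% and 1.02%. The epidermis marker list had 794 CPM in mutant and 12433 CPM in control cells of this class, and the mesenchyme list 49.2 and 410.1 CPM, and their part was not tested. The summed ratio was 0.415 with the marker gate and 0.39 without integration, each with 3 members called and no share over all genes computed. The 9 members were *col1a1a*, *col1a1b*, *col1a2*, *col2a1a*, *col2a1b*, *col4a5*, *col5a1*, *col11a1a* and *col18a1a*, each with its highest level in another class. The unnamed cluster of low-depth cells (cluster 0, 124 mutant and 543 control cells) had 0.781% and 1.28% collagen UMIs. Free RNA and expression cannot be told apart in cells of this depth.

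Genes that process or bind collagen chains were taken from a list. Of 71 listed genes for chain hydroxylation and glycosylation, chaperones and export, propeptide removal and cross-linking, and collagen receptors, 63 were in the files. Over all cells 0 of 63 were higher (all genes 4.41%) and 3 lower (all genes 6.93%) by the same rule, with a median log2 ratio of -0.10, against -0.16 over all genes and -0.30 over the collagens. The lower ones were *ddr2b*, *loxa* and *itga11b*, each with under 200 UMIs and named after their values were seen. In mesenchyme-like cells 2 of 58 were higher (all genes 2.78%) and 2 lower (all genes 3.95%). *creb3l1*, a transcription factor for secretory genes, had 25.4 CPM in the mutant library and 53 CPM in the control library there, a ratio of 0.481 (0.381 to 0.606). *itgb1b.1*, an integrin beta chain, had 23 and 11.3 CPM, and *itga2.2*, an alpha chain of a collagen receptor, had 9.28 and 2.39 CPM. The other lower one was *itga11b*, with a ratio of 0.317 (0.192 to 0.516). In cluster 4 there were 4 of 47 higher (all genes 4.38%) and 0 lower (all genes 4.97%). The higher ones, named after their values were seen, were *serpinh1b*, the collagen chaperone, with 2.85 (1.79 to 4.74), *pcolcea*, an enhancer of propeptide removal, with 2.56 (1.84 to 3.64), and the receptor chains *itga1* with 2.03 (1.43 to 2.94) and *itgb1b.1* with 3.34 (1.66 to 7.61). In cluster 1 *serpinh1b* had a ratio of 1.79 (1.53 to 2.11), and *pcolcea* of 0.911 (0.778 to 1.07). The median log2 ratio of the list was 0.22 in cluster 4 and -0.14 in cluster 1.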

How the data were processed

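Sorted GFP+ cells of 36 hpf zebrafish were measured as 1 *mgat4b* mutant and 1 control 10x 3′ library. The deposited values are counts, whole UMIs per gene and cell, which the authors made with Cell Ranger (7.2.0 by the matrix headers) on Ensembl GRCz11 without normalization. The libraries held 4120 mutant and 1923 control barcodes, with 31032783 and 17502003 UMIs. Following the study's filter, cells with over 200 genes and under 5% mitochondrial UMIs were kept. Seurat 5.3.0 in R 4.3.3 integrated the libraries (2000 features, 30 anchor dimensions) and clustered the cells (13 dimensions, Louvain resolution 1) with all collagen genes left out of the features. Clusters were named from 25 marker lists without collagens. A name needed at least 3 markers among the 50 leading genes, and more among the 10 leading genes than any other list. Cluster 0, with 124 mutant and 543 control cells, had 5 epidermis markers among its 50 leading genes. It tied with another list at 2 among the 10 leading genes, and so stayed outside the epidermis-like class. Clusters rebuilt in this way may differ from those of the study.

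UMIs were summed per library and class in Python 3.11.15 and divided by the summed total to give CPM. Ratios carry exact conditional binomial intervals and levels exact Poisson intervals (95%, scipy 1.17.1), which cover counting error only, and no p-value was computed with 1 library per group. A gene was called at 2-fold either way with an interval without 1 and 20 or more UMIs, and all genes under the same rule (for location, all genes but the members) gave the background. A class was compared if both libraries had 50 or more of its cells. The notochord or cartilage-like class, with 60 mutant and 24 control cells, was compared as an exception to this rule. The ratio and call code was tested on simulated data. Members with 500 or more UMIs were given full values, and in each class the members called there, while genes of the collagen-handling list were named when called over all cells or in mesenchyme-like cells with 200 or more UMIs. The members and the lists were chosen with earlier results of these data known. Gene neighbours came from RefSeq (GRCz12tu), and no sequence was used here.

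Scrublet (scanpy 1.11.5) at its automatic threshold marked 0 mutant cells and 1 control cell and so had not worked. Doublets were therefore left in, and an alternative took out the 119 mutant and 25 control cells with the highest scores at a rate of 0.8% per 1000 cells. The other alternatives were TMM scaling (edgeR 4.0.16), totals without mitochondrial and ribosomal genes, means over cells, a stricter or no cell filter, equal cell numbers, leaving out single cells, another resolution, no integration, a marker gate, a 1.5-fold limit and a minimum of 50 UMIs. Figures were drawn with matplotlib 3.10.9.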

Additional observations from a re-analysis of the deposited data

Results flagged for a closer look

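*col11a2*, *col9a3* and *col9a1a* had mutant over control ratios on opposite sides of 1 in different classes. The differences between classes were not tested, since each class rests on 1 library per genotype. *col11a2* had a ratio of 2.69 in neuron-like cells and 0.370 in mesenchyme-like cells. *col9a3* had a ratio of 2.76 in neuron-like cells, 0.0534 in epidermis-like cells and 0.232 in neural progenitor-like cells. *col9a1a* had a ratio of 3.04 in neuron-like cells, 0.483 in mesenchyme-like cells and 0.339 in neural progenitor-like cells. Without the highest cell of each gene the neuron-like ratios were 1.57 for *col11a2*, 0.803 for *col9a3* and 1.46 for *col9a1a*, and without the cells marked as doublets they were 0.248 for *col9a3* and 0.332 for *col9a1a*.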

How the results depend on the processing

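Of 263 alternative values for counts and summed ratios 167 kept their direction and size, 93 moved and 3 turned direction, and of 2576 for single members 1953, 608 and 15 did so. TMM scaling shifted all log2 ratios up by 0.15 over all cells, and by 0.09 (notochord or cartilage-like) to 0.32 (neural progenitor-like) within classes. It gave summed ratios of 0.764 over all cells with 2 members lower, 0.829 in epidermis-like, 0.765 in mesenchyme-like, 0.110 in myeloid-like, 1.01 in neural progenitor-like, 1.05 in neuron-like, 0.95 in otic-like and 0.815 in notochord or cartilage-like cells. Totals without mitochondrial and ribosomal protein genes gave 0.722, 0.753 (epidermis-like), 0.737 (mesenchyme-like), 0.860 (neural progenitor-like), 0.894 (otic-like) and 0.814 (notochord or cartilage-like). All barcodes gave 0.696. The share of all genes called was computed for the main setting only. Counts of members called under the alternatives therefore have no background beside them and are not read as results about collagens.

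Without marked doublets the summed ratio was 0.698 over all cells, 0.399 in neuron-like (23 members called), 0.903 in otic-like and 0.791 in notochord or cartilage-like cells (2 lower), with 4 lower in epidermis-like cells, and *col9a3* (0.248) and *col9a1a* (0.332) in neuron-like and *col28a1a* (2.33) and *col6a2* (1.09) in otic-like cells turned. With mutant cells drawn to the control number it was 0.672, 0.692 in epidermis-like (1 higher), 0.681 in mesenchyme-like (11 lower), 0.691 in neural progenitor-like, 0.784 in otic-like and 0.840 in notochord or cartilage-like cells (0 higher, 3 lower, *col1a1a* 0.606). With each gene's highest cell left out it was 0.719, 0.763 in epidermis-like, 0.760 in mesenchyme-like (4 lower), 0.961 in neural progenitor-like (11 called) and 0.819 in notochord or cartilage-like cells (1 higher, 1 lower), with 7 called in neuron-like (*col6a3* 0.953, *col9a3* 0.803) and 3 in otic-like cells (*col28a1a* 2.42).

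Means over cells gave 0.708 in epidermis-like, 0.699 in mesenchyme-like, 0.035 in myeloid-like, 0.960 in neural progenitor-like (*col9a2* 1.14, *col9a1a* 1.32), 0.700 in neuron-like, 0.786 in otic-like (*col28a1a* 1.37), 0.466 in retina-like (11 called) and 0.785 in notochord or cartilage-like cells (3 lower). A 1.5-fold limit, for which no share over all genes was computed, gave 17 lower over all cells. It gave 13 lower in epidermis-like, 12 in mesenchyme-like and 1 in notochord or cartilage-like cells, and 17, 12 and 8 called in neuron-like, otic-like and retina-like cells. A minimum of 50 UMIs gave 0 higher and 3 lower in epidermis-like cells and 4, 10, 7 and 2 called in myeloid-like, neural progenitor-like, neuron-like and retina-like cells. Resolution 0.5 gave 0.672 in neuron-like (18 called), 0.886 in neural progenitor-like and 0.726 in epidermis-like cells. The marker gate gave 0.715 in epidermis-like, 0.692 in mesenchyme-like (1 higher), 0.415 in myeloid-like (3 called), 0.890 in neural progenitor-like (*col1a1a* 1.14, *col6a2* 3.52), 0.783 in neuron-like, 0.962 in otic-like and 0.992 in retina-like cells. The stricter filter gave 0.145 in myeloid-like cells. No integration gave 0.390 in myeloid-like (3 called), 0.854 in neural progenitor-like (*col9a2* 1.75, *col9a1a* 2.08), 0.687 in neuron-like and 0.828 in otic-like cells.

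Chosen after seeing the data were single clusters (0.791 in cluster 3, 0.721 in cluster 1, 1.22 in cluster 4 with 2 higher and 2 lower, 0 higher and 2 lower in cluster 5), an equal cluster mix (0.768, 2 lower) and all cells without the notochord or cartilage-like class (0.639). The count of 42 members with over 50% of UMIs in 1 class stayed within 1.5 times under each alternative run. The retina-like ratio of *col14a1a*, a lower bound, has no alternatives here. The causes were not tested. No paired analysis was possible because each group is 1 library. Depth and low counts in small classes limit the ratios. Median UMIs per cell were lower in the mutant library in epidermis-like (8195 and 17848 in the control library) and mesenchyme-like cells (7720.5 and 11807). The same held in neuron-like (5140 and 9239), neural progenitor-like (6431 and 9483.5), otic-like (6471 and 10042) and notochord or cartilage-like cells (12643 and 16583.5). Control cells were the shallower ones in retina-like (6896 and 5132) and myeloid-like cells (13992 and 893).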
